A study of Mus musculus with 4 samples.

Results

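The miR-29 family was taken from the table of Ago-bound small RNAs as 5 miRNA names, mmu-miR-29a-3p, mmu-miR-29b-3p, mmu-miR-29c-3p, mmu-miR-29a-5p and mmu-miR-29c-5p, out of 1029 names in all. Their rows comprised 1271 of the 85704 sequences of the table. The rule names the members and uses no measured value. The libraries came from the combined cortex and hippocampus of untreated male C57BL/6J mice that carried no transgene, with 2 libraries from animals aged 2 months (young) and 2 from animals aged 18 months (old). The sources used here do not say how many animals went into a library, so the p-values measure only the spread between these libraries. The comparison asked how the miRNAs held by the RNA-induced silencing complex (RISC) of the brain differ between young and old mice.

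miRNAs are short guide RNAs that Argonaute (Ago) proteins carry within the RISC. Their seed, the bases just behind the 5′ end, pairs with messenger RNAs and lowers their output. The miR-29 family is one of the most abundant miRNA groups of the mature brain and is known to rise as neurons mature. Its best studied targets are collagens and other matrix genes, the DNA methyltransferases, BH3-only cell death genes, and Bace1, which encodes the β-secretase that cuts the amyloid precursor protein App. The 3p strand of each hairpin is the usual guide, and the 5p strand is usually discarded.

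All 3 of the 3p members share 1 seed, so they can pair with the same seed matches. The mature sequences are shown because that shared seed, and the few bases in which the members differ behind it, decide what can be told apart in these data. They are from RefSeq (GRCm38.p6) and run 5′ to 3′, with the seed (bases 2 to 8) in capitals. The last 2 are the 5p strands of miR-29b, which are not among the 5 names:
mmu-miR-29a-3p: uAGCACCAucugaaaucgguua
mmu-miR-29b-3p: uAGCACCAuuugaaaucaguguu
mmu-miR-29c-3p: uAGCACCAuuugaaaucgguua
mmu-miR-29a-5p: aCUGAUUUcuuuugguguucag
mmu-miR-29c-5p: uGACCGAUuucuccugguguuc
mmu-miR-29b-1-5p: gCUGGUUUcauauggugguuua
mmu-miR-29b-2-5p: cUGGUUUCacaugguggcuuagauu
Of the 1679 mature mouse sequences in RefSeq, 3 (0.179%) had the seed AGCACCA, and these were the 3p members. Counted from 1 at the 5′ end, miR-29a-3p and miR-29c-3p differ by C10U alone. miR-29c-3p and miR-29b-3p are identical over the first 17 bases and then differ by G18A, U21G and A22U. Of these sequences, only miR-29b-3p ends in AGUGUU, a hexamer known as a signal that directs miR-29b to the nucleus. The letters AGUGUU stood anywhere in 12 of the 1679 mature sequences (0.715%). The 5p strands do not share the seed of the 3p strands, and each has a seed of its own.

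The family is made from 2 clusters of 2 hairpins. On GRCm38.p6, Mir29a (chr6:31062660-31062747) and Mir29b-1 (chr6:31063023-31063093) lie on the minus strand with 275 bases between them. Mir29b-2 (chr1:195037040-195037120) and Mir29c (chr1:195037547-195037634) lie on the plus strand with 426 bases between them. In GENCODE, Mir29a overlaps no other gene. Mir29b-1 overlaps the last 2 bases of the lincRNA Gm27019. Mir29b-2 and Mir29c lie inside an exon of the noncoding transcript A330023F24Rik on the same strand, and opposite the untranslated part of the last exon of Cd46, which runs on the other strand. The 3p strands are shown in capitals with the neighboring hairpin bases in lower case, since those neighbors decide which longer forms a hairpin can give:
Mir29a: uucUAGCACCAUCUGAAAUCGGUUAuaau
Mir29c: gucUAGCACCAUUUGAAAUCGGUUAugau
Mir29b-1: gucUAGCACCAUUUGAAAUCAGUGUUcu
Mir29b-2: aucUAGCACCAUUUGAAAUCAGUGUUuuag
Both hairpins of miR-29b give the same mature 3p sequence, and its level is the sum of both.

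Levels are in CPM, the normalized read count of the table, for which each library was scaled to a fixed total. In each library, all nonzero values were whole multiples of 1 read, within 0.0006 CPM plus 1e-07 of the value. The reads behind the scale were 9067007 to 11388999, 3 reads were worth 0.263 to 0.331 CPM, and sequences with a miRNA name held 96.6% to 96.7% of the CPM. Intervals and such floors cover counting error only, since PCR copies are not independent molecules. The tissue labels were checked by markers: the 5 neuronal miRNAs, led by miR-124-3p, summed to 137032 to 185800 CPM, and oligodendrocyte, immune, vascular and choroid plexus markers were all detected. In such tissue, fewer cells of a type and less RNA per cell cannot be told apart. A list of 6 miRNAs of olfactory or pituitary epithelium was also high. It summed to 27092 and 47393 CPM in young brain and 56424 and 63259 CPM in old brain. Of these 6, miR-200b-3p, miR-141-3p and miR-429-3p were called higher in old brain and miR-7a-5p lower, by the limma test described below. Of all 456 names tested, 19 (4.17%) were called higher and 55 lower, and 12.1% were higher in both old libraries. The part of this tissue in the results below was not tested.

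mmu-miR-29a-3p was the most abundant member and ranked 5th among all names by mean level. Its level was 29860 and 26219 CPM in young brain and 32580 and 44183 CPM in old brain. Both old libraries were above both young ones, but the second old library stood far above the first. The means were 28039 ± 2575 CPM (SD, n = 2) and 38382 ± 8205 CPM (SD, n = 2), a ratio of 1.37. mmu-miR-29b-3p ranked 11th, with 11392 and 16897 CPM in young brain and 16076 and 27145 CPM in old brain. The ages overlapped, since the first old library was below the second young one. Its means of 14144 ± 3893 and 21610 ± 7827 CPM (SD, n = 2) had a ratio of 1.53. mmu-miR-29c-3p ranked 35th, with 5651 and 6280 CPM in young brain and 5817 and 11356 CPM in old brain. Here only the second old library stood apart, and the other 3 lay close together. Its means were 5965 ± 445 and 8587 ± 3917 CPM (SD, n = 2), a ratio of 1.44. The order miR-29a-3p, miR-29b-3p, miR-29c-3p held within each of the 4 libraries.

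The 5p members were far rarer than the 3p members. mmu-miR-29a-5p had 231 and 193 CPM in young brain and 240 and 386 CPM in old brain, so the ages did not overlap but the first old library was close to the first young one. mmu-miR-29c-5p had 406 and 256 CPM in young brain and 532 and 537 CPM in old brain. Its old libraries were nearly equal and both were above the young ones, with means of 331 ± 106 and 535 ± 3.26 CPM (SD, n = 2) and a ratio of 1.61. The 5p strands of miR-29b were rarer still. mmu-miR-29b-1-5p had 29.9 and 30.2 CPM in young brain and 26.3 and 26.1 CPM in old brain, and mmu-miR-29b-2-5p had 33.2 and 26.7 CPM in young brain and 23.0 and 39.2 CPM in old brain.

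**Figure D1:**
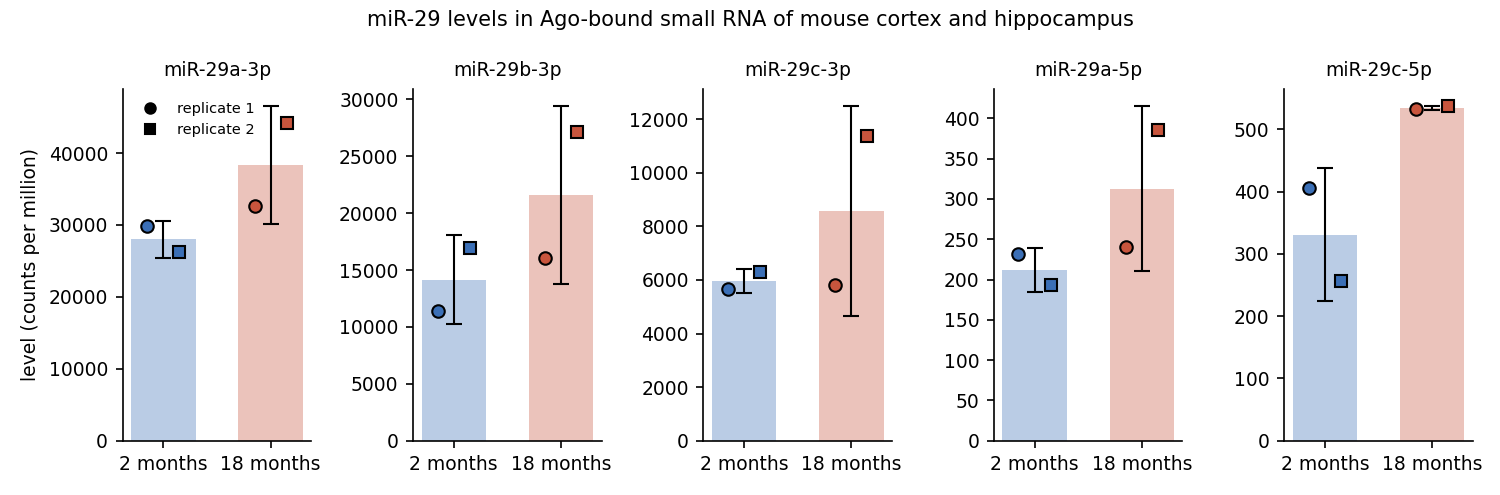
Level of each of the 5 miR-29 members in CPM (y axis, from 0, a separate scale per panel) at 2 and 18 months. Bars are means, error bars the SD over 2 libraries, circles replicate 1 and squares replicate 2. The second old library is the highest for every member, and for miR-29c-3p the other 3 libraries lie between 5651 and 6280 CPM.

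The old and young libraries were set against each other with limma (two-sided, on log2 of CPM + 1) for the 456 names that averaged 10 CPM or more. A name is said to be called where its unadjusted p was under 0.05, and 74 names were (16.2% of those tested). Of these 19 were higher with age (4.17% of those tested) and 55 lower, and the median change of all names was -0.22 on the log2 scale. Of the 5 members 1 was called, mmu-miR-29c-5p, higher by a log2 change of 0.73 ± 0.27 (SE, limma adjusted p = 0.266). Its change was 0.40 without the second young library, 0.73 without the first old library and 0.72 without the second old library, and the call was lost each time. The other members had positive changes that did not pass the test. These were 0.44 ± 0.24 for mmu-miR-29a-3p (SE, limma adjusted p = 0.402), 0.59 ± 0.33 for mmu-miR-29b-3p (adjusted p = 0.417), 0.45 ± 0.34 for mmu-miR-29c-3p (adjusted p = 0.497) and 0.52 ± 0.28 for mmu-miR-29a-5p (adjusted p = 0.402). No member passed after adjustment, by limma, edgeR or DESeq2. The 5p strands of miR-29b changed by -0.19 ± 0.24 and 0.01 ± 0.33 (SE). Both old libraries were above both young ones for 3 of the 5 members (miR-29a-3p, miR-29a-5p and miR-29c-5p), against 12.1% of all 456 names.

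The calls depended on how the libraries were scaled. CPM sets each library to 1 total, and the median change was then -0.22 on the log2 scale. After rescaling by the median of ratios, which moved that median to -0.01, the split of the 64 calls turned to 39 higher (8.55% of those tested) and 25 lower. Under that scaling 4 of the 5 members were called higher, with log2 changes of 0.65 for miR-29a-3p (limma adjusted p = 0.271), 0.80 for miR-29b-3p (adjusted p = 0.340), 0.74 for miR-29a-5p (adjusted p = 0.294) and 0.94 for miR-29c-5p (adjusted p = 0.188). The change of miR-29c-3p was 0.66 and it was not called (adjusted p = 0.431). On the recovered reads, the quasi-likelihood test of edgeR called the same 4 members (8.55% of all names were called higher) and DESeq2 called all 5 (9.43% of all names), again before adjustment. With the replicate number as a block, an alternative added after the data were seen, edgeR called all 5 members higher, with 11.0% of all names. The direction was positive for each member under each scaling, but its size depended on single libraries of either age. Without the first young library the change was 1.06 for miR-29c-5p and 0.31 for miR-29b-3p. Without the second young library these were 0.40 and 0.87. Without the second old library no member was called, the changes of miR-29a-3p and miR-29b-3p were 0.22 and 0.21, and miR-29c-3p turned to -0.03. Without the first old library miR-29a-3p, miR-29b-3p, miR-29c-3p and miR-29a-5p were called by limma, with changes of 0.66, 0.97, 0.93 and 0.86, and 4.17% of all names were called higher.

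**Figure D2:**
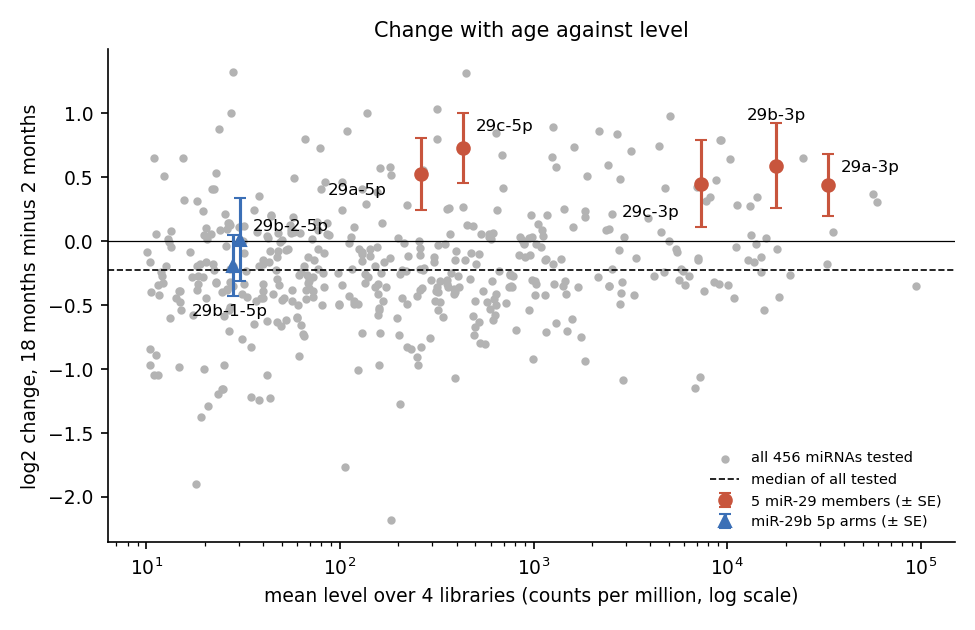
log2 change in level between 18 and 2 months (y axis, in log2(CPM + 1)) against the mean level over 4 libraries in CPM (x axis, log scale) for 456 miRNAs. The 5 miR-29 members lie at 0.44 to 0.73, above the dashed median of -0.22, while the 5p strands of miR-29b lie at -0.19 and 0.01 (error bars, SE).

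The 3p members together held 4.69% (4.68% to 4.70%) and 4.94% (4.93% to 4.95%) of all CPM in young brain, where parentheses give the 95% Wilson interval. Their part of old brain was 5.45% (5.44% to 5.46%) and 8.27% (8.25% to 8.29%). The means of 4.82% ± 0.176 and 6.86% ± 1.996 (SD, n = 2) differed by 2.04 percentage points, with a two-sided exact permutation p of 0.333, the smallest that 2 libraries against 2 can give. Without the second old library the difference was 0.633 points. The ages did not overlap, but the second old library lay farther above the first than the first lay above the young ones. The makeup of the 3p pool overlapped between the ages: miR-29a-3p was 63.7% and 53.1% of it in young brain and 59.8% and 53.4% in old brain, and miR-29c-3p was 10.7% to 13.7% in all 4 libraries.

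Because miR-29a-3p and miR-29c-3p differ by a single base, the share of misread bases was measured. In the leading miR-29a-3p sequence, a C was read as U at the other 4 C positions at a mean rate of 0.0666% to 0.106%, and at most 0.123% in any library. At that highest rate, misread miR-29a-3p would make up at most 0.687% of the CPM named miR-29c-3p in any library. Reads that end before base 18 would fit miR-29b-3p and miR-29c-3p alike, and 0 of the sequences placed on either ended before that base.

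miR-29b-3p was found mostly in 2 lengths that differ by the last base of the nuclear hexamer, and their balance differed between the ages. The leading sequences are shown with base 18 onward in capitals:
23 nt: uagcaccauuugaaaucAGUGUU
22 nt: uagcaccauuugaaaucAGUGU
21 nt: uagcaccauuugaaaucAGUG
The 23 nt form, with AGUGUU whole, had 4903 and 10023 CPM in young brain and 6310 and 10700 CPM in old brain. Its levels overlapped between the ages (log2 change 0.23 ± 0.38 SE, limma adjusted p = 0.869). The 22 nt form, which lacks the last U, had 4521 and 4688 CPM in young brain and 7068 and 12402 CPM in old brain. Both old libraries were above both young ones, with a log2 change of 1.02 ± 0.30 (SE, limma adjusted p = 0.335). It was called, and without the second old library its change was 0.62 and it was not. The 21 nt form had 363 and 497 CPM in young brain and 628 and 869 CPM in old brain, a change of 0.80 ± 0.30 (SE, limma adjusted p = 0.436). It was called as well, and its call was lost without the first young library (change 0.57) or the second old library (0.56).

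As a share of miR-29b-3p, which does not depend on how libraries are scaled to each other, reads that held AGUGUU whole were 47.8% and 62.7% in young brain and 41.9% and 43.6% in old brain. The old libraries lay close together and below both young ones, and the young ones differed widely. Counting error was at most 0.28 points in any library. Reads with the RefSeq 5′ end that stopped short of the RefSeq 3′ end were 45.0% and 32.3% of miR-29b-3p in young brain and 52.0% and 51.6% in old brain, so that the ages did not overlap. Among 237 miRNAs with a RefSeq sequence and a mean of at least 100 CPM, 38.4% likewise had a higher share of shortened reads in both old libraries, and the median difference over these miRNAs was 1.35 points. The 13.1 points of miR-29b-3p ranked 4th of 237, and without the second young library they were 6.78 points and ranked 36th. Of the other members, miR-29a-5p was also without overlap (34.4% and 34.4% in young brain, 41.5% and 42.3% in old brain), whereas for miR-29a-3p, miR-29c-3p and miR-29c-5p the ages overlapped. Without the second young library, in which the whole hexamer was most frequent, the share that held AGUGUU was 5.06 points lower in old brain in place of 12.5 points.

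**Figure D3:**
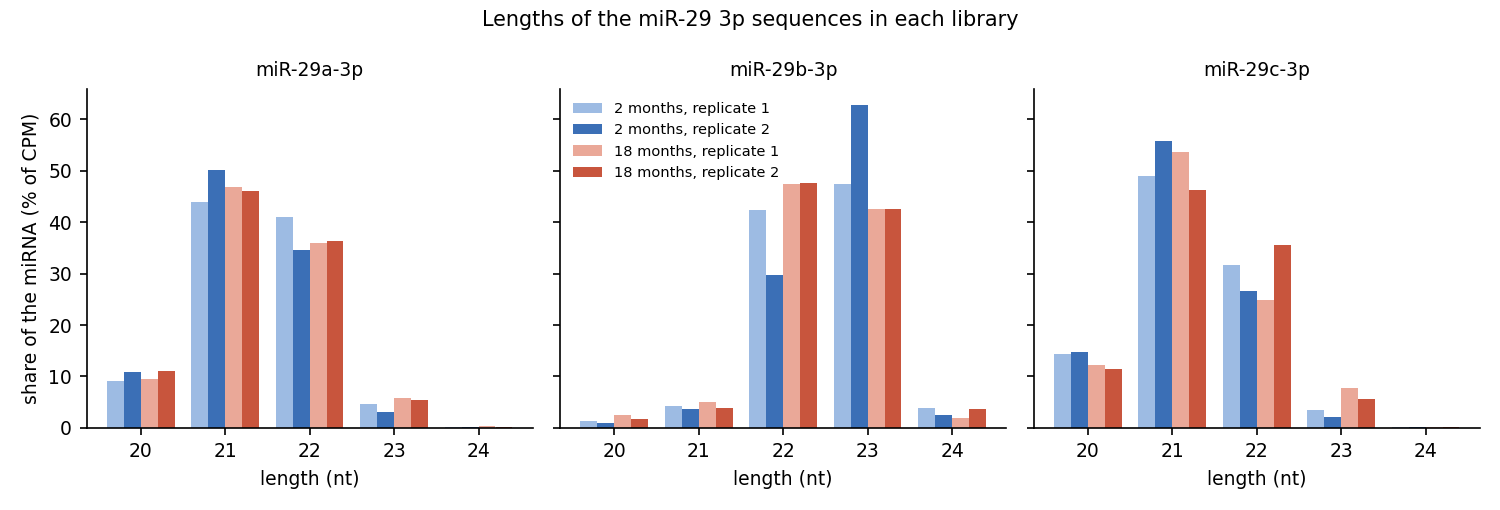
Share of each 3p member by sequence length (x axis, in nt) in percent of its CPM (y axis), with 1 bar per library, for lengths of 20 to 24 nt. For miR-29b-3p, 23 nt reads make up 47.5% and 62.8% in the young and at most 42.6% in the old libraries, and 22 nt reads are more frequent in both 18-month libraries.

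For miR-29a-3p and miR-29c-3p the leading form was 21 nt, 1 base shorter than the RefSeq sequence. The 21 nt form of miR-29a-3p had 12286 and 12492 CPM in young brain and 14121 and 19139 CPM in old brain (log2 change 0.41 ± 0.25 SE, limma adjusted p = 0.617). The RefSeq 22 nt form had 9918 and 6718 CPM in young brain and 9011 and 12733 CPM in old brain, and the ages overlapped. The 20 nt form had 2359 and 2697 CPM in young brain and 2764 and 4514 CPM in old brain. For miR-29c-3p, the 21 nt form had 2650 and 3390 CPM in young brain and 2978 and 5084 CPM in old brain. Its 22 nt form had 1646 and 1498 CPM against 1272 and 3661 CPM, and its 20 nt form 745 and 890 CPM against 654 and 1234 CPM. In each of these 3 forms of miR-29c-3p the first old library lay below at least 1 young library.

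Forms of 23 nt, 1 base past the RefSeq 3′ end, included the sequences of miR-29a-3p and miR-29c-3p named here with the largest changes. They were chosen after their values were seen. The next hairpin base is U for both members, and a U can also be added without a template, so a match to the hairpin does not tell these apart. The most abundant forms were, for both members, a form that matches the hairpin and a form with an A that the hairpin does not hold (in capitals):
miR-29a-3p, hairpin base: uagcaccaucugaaaucgguuau
miR-29a-3p, added A: uagcaccaucugaaaucgguuaA
miR-29c-3p, hairpin base: uagcaccauuugaaaucgguuau
miR-29c-3p, added A: uagcaccauuugaaaucgguuaA
The miR-29a-3p form with the hairpin base had 291 and 165 CPM in young brain and 565 and 771 CPM in old brain, a log2 change of 1.59 ± 0.34 (SE, limma adjusted p = 0.224). The form with the added A had 452 and 208 CPM in young brain and 696 and 921 CPM in old brain, a change of 1.38 ± 0.38 (SE, limma adjusted p = 0.303). Without the second young library its change was 0.82 and it was not called. Both forms were higher in both old libraries, and for both the second young library was the lowest. The miR-29c-3p form with the hairpin base had 70.1 and 43.2 CPM in young brain and 196 and 286 CPM in old brain, a change of 2.08 ± 0.35 (SE, limma adjusted p = 0.121). The form with the added A had 88.8 and 52.3 CPM in young brain and 208 and 299 CPM in old brain, a change of 1.86 ± 0.35 (SE, limma adjusted p = 0.159). All 4 of these forms were called by limma. The rarer 23 nt forms with an added G were not, with 33.1 and 22.7 CPM in young brain and 47.4 and 44.2 CPM in old brain for miR-29a-3p (log2 change 0.72 ± 0.32 SE, limma adjusted p = 0.496) and 7.25 and 7.73 CPM against 9.27 and 12.5 CPM for miR-29c-3p (0.47 ± 0.33 SE, limma adjusted p = 0.665). Unlike miR-29c-3p as a whole, its 23 nt forms with the hairpin base and with the added A were higher in each old library than in each young one, and these 2 stayed called by limma when either old library was left out.

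Reads past the RefSeq 3′ end made up 2.92% and 1.73% of miR-29a-3p in young brain and 4.45% and 4.26% in old brain. For miR-29c-3p they made up 3.54% and 2.22% in young brain and 7.91% and 5.88% in old brain. The ages did not overlap for either member. miR-29b-3p showed no such split, with 3.76% and 2.36% against 1.65% and 3.67%. Counted for reads with the RefSeq 5′ end in the 237 miRNAs, a share that was higher in both old libraries was found for 14.8%, and the median difference was -0.15 points. On that count the difference of 3.94 points for miR-29c-3p ranked 7th of 237 and that of 1.95 points for miR-29a-3p ranked 27th. Without the first old library the difference of miR-29c-3p was 2.99 points and ranked 23rd. Without the second young library that of miR-29a-3p was 1.39 points and ranked 36th. On the same count, the shares of longer reads of miR-29a-5p (53.5% and 45.0% against 41.4% and 44.0%) and miR-29c-5p (7.19% and 7.13% against 6.31% and 5.65%) were lower in both old libraries. Their differences of -6.59 and -1.18 points ranked 230th and 179th of 237. That count leaves out the later starts of miR-29c-5p, which held most of its reads. With all starts counted, 36.4% and 37.7% of miR-29c-5p ended past the RefSeq 3′ end in young brain. In old brain it was 29.6% and 30.1%, a difference of -7.19 points that was not ranked. Such a lower share is not particular to these 5p members. Many other miRNAs, among them let-7e-5p, miR-30a-5p, miR-30e-5p, miR-200a-3p and miR-7a-5p, also had it in both old libraries. How frequent it was among the 237 miRNAs was not counted, so it is not read as a result about the members. A single added A at the 3′ end was more frequent in both old libraries for miR-29a-3p, miR-29b-3p, miR-29c-3p and miR-29c-5p, which was also so for 31.6% of the 237 miRNAs. In miR-29c-5p it made up 5.68% and 2.88% of the reads in young brain and 6.89% and 8.05% in old brain, and the difference of 3.19 points ranked 2nd of 237. Without the second young library it was 1.79 points and ranked 12th. The added A of miR-29b-3p differed by 0.551 points, or 0.316 points without that library, and that of miR-29c-3p by 1.94 points, or 1.10 points without the first old library.

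**Figure D4:**
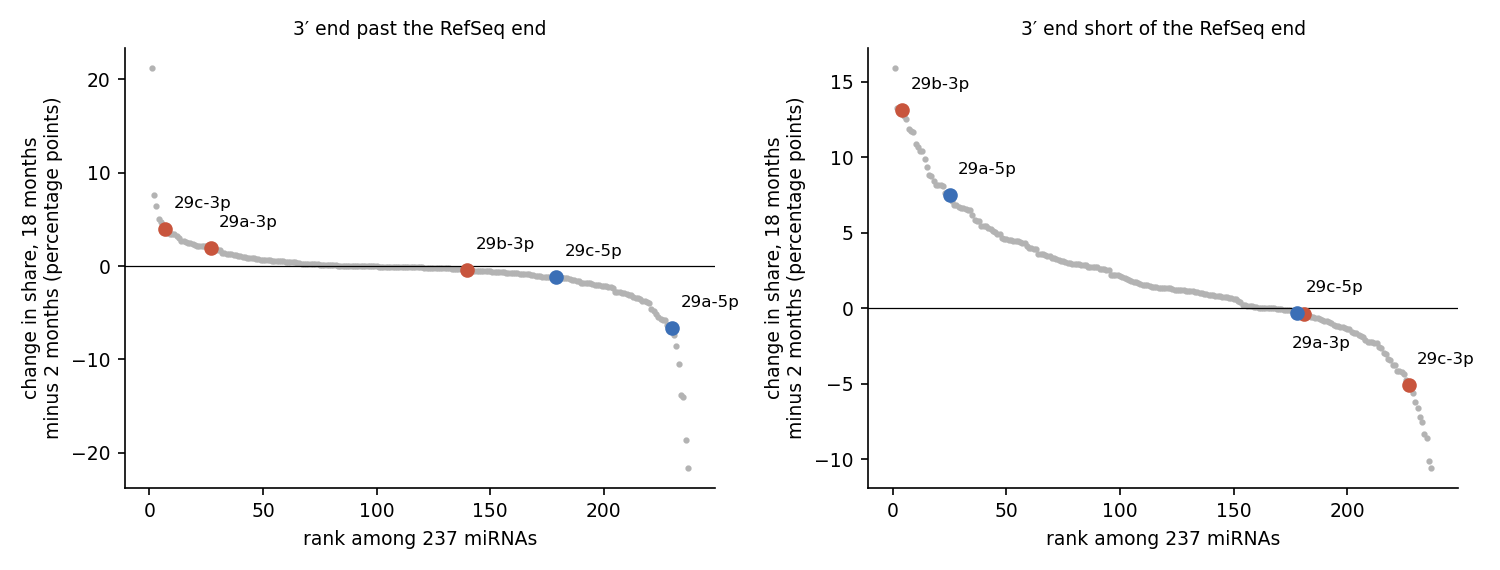
Change between 18 and 2 months in the share of reads that end past (left) or short of (right) the RefSeq 3′ end, in percentage points (y axis), for 237 miRNAs in order of size (x axis, rank). Only reads with the RefSeq 5′ end were counted as longer or shorter. Red points are the 3p members and blue points the 5p members, with miR-29c-3p 7th on the left and miR-29b-3p 4th on the right.

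The longer forms of miR-29b-3p bear on its 2 hairpins, since the base after the mature sequence is U in Mir29b-2 and C in Mir29b-1. The 24 nt form ending in U had 249 and 191 CPM in young brain and 87.1 and 508 CPM in old brain. The form ending in C had 2.96 and 3.42 CPM in young brain and 4.35 and 7.06 CPM in old brain, far less in each library. A U can also be added to a finished miRNA without a template, so these reads do not divide miR-29b-3p between its hairpins. The 5p strands of both hairpins, which do differ in sequence, had like mean levels of 28.1 and 30.5 CPM.

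The 5′ end sets the seed, and most reads of each 3p member kept the RefSeq start. An earlier start by 1 base shifts the 6mer seed (bases 2 to 7) from AGCACC to UAGCAC. The table gives each 6mer seed the mean viability of 3 mouse cell lines transfected with an RNA that carries it, in percent of the control, so that a seed with a low value is the more toxic. The viability was 51.3% for AGCACC and 28.9% for UAGCAC. The leading shifted sequences are shown with their seed (bases 2 to 8) in capitals:
miR-29a-3p, 1 base earlier: cUAGCACCaucugaaaucgguu
miR-29b-3p, 1 base earlier: cUAGCACCauuugaaaucagugu
miR-29c-3p, 1 base later: aGCACCAUuugaaaucgguu
The earlier start made up 8.97% and 10.1% of miR-29a-3p in young brain and 9.05% and 7.43% in old brain. In miR-29b-3p it made up 5.92% and 4.14% against 4.64% and 3.86%, and in miR-29c-3p 0.70% and 0.54% against 0.66% and 0.46%. The ages overlapped for each member. The share was highest in miR-29a-3p and lowest in miR-29c-3p in each library, although all 4 hairpins hold UCUAGCACC at this place. The leading shifted sequence of miR-29a-3p had 1626 and 1803 CPM in young brain and 1740 and 1960 CPM in old brain (log2 change 0.11 ± 0.26 SE, limma adjusted p = 0.909). Weighted by CPM, the mean seed viability of the 3p members was 49.7% and 49.8% in young brain and 49.8% and 50.1% in old brain, without overlap and with a difference of 0.225 points (two-sided exact permutation p = 0.333).

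The 5p members differed in how firmly their 5′ end was set. miR-29a-5p began at the RefSeq base in 96.9% to 98.3% of its reads, with a seed viability of 69.2% (CUGAUU). miR-29c-5p had 3 starts and therefore 3 seeds, and its leading sequence for each start is shown with the seed (bases 2 to 8) in capitals:
RefSeq start: uGACCGAUuucuccugguguu
1 base later: gACCGAUUucuccugguguu
2 bases later: aCCGAUUUcuccugguguucaga
The RefSeq start made up 42.0% and 42.7% of miR-29c-5p in young brain and 43.6% and 45.7% in old brain. The start 1 base later made up 34.4% to 40.1%, and the start 2 bases later 16.2% to 22.5%. The viability of the 6mer seeds was 55.2%, 63.2% and 77.2% in that order. The leading sequence had 61.5 and 48.9 CPM in young brain and 77.5 and 88.1 CPM in old brain, without overlap (log2 change 0.58 ± 0.30 SE, limma adjusted p = 0.553).

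The 5p strand was a far larger part of miR-29c than of miR-29a. It made up 6.70% and 3.92% of both strands of miR-29c in young brain and 8.38% and 4.51% in old brain. For miR-29a it was 0.769% and 0.730% in young brain and 0.732% and 0.865% in old brain. The ratio of 5p to 3p was higher in miR-29c than in miR-29a by 2.44 to 3.63 on the log2 scale in the 4 libraries, without an exception. With age, log2 of 5p over 3p differed by 0.09 for miR-29a and 0.28 for miR-29c, and in both the ages overlapped (two-sided exact permutation p = 0.667 for each). For miR-29c the first library of each age had the larger ratio. The 5p strands of miR-29b together made up 0.551% and 0.336% of miR-29b in young brain and 0.306% and 0.240% in old brain.

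Single sequences that averaged 1 CPM or more numbered 14287, of which the same limma fit called 1443 (10.1%), 838 of them higher in old brain (5.87%). Of the 1271 member sequences 324 passed this filter, and these held at least 99.4% of the members' CPM in each library. Of the 324, 76 were called higher and none lower, and none passed after adjustment. The median change was 0.47 on the log2 scale, against -0.01 for all sequences tested. These sequences are variants of 5 RNAs and do not count as separate evidence of a change. With no filter, 114 of the 1271 were called higher and 2 lower, with 2.15% of all sequences called higher. Without the second old library 50 of the 324 were called higher and 2 lower (4.17% of all sequences tested were higher), and without the second young library 49 were called higher (5.56% of all). The calls were spread over the family, with 33 of 135 tested sequences of miR-29a-3p, 23 of 90 of miR-29b-3p, 10 of 65 of miR-29c-3p, 2 of 10 of miR-29a-5p and 8 of 24 of miR-29c-5p.

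A further 823 sequences matched the miR-29 hairpins but carried no miRNA name. They summed to 688 and 713 CPM in young brain and 831 and 1211 CPM in old brain, which was 1.44% to 1.53% of the 3p members in each library. Outside the family, the named miRNA with the most reads on the 6mer seed AGCACC was mmu-miR-3102-3p. Its reads with that seed had 281 and 262 CPM in young brain and 235 and 169 CPM in old brain, with both old libraries below both young ones.

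Against other abundant families of the brain, the miR-29 3p members were set within each library. log2 of miR-29 over the summed let-7-5p family, known for its rise as cells differentiate, was -1.09 and -0.94 in young brain and -0.58 and 0.01 in old brain. The ages did not overlap, and the difference was 0.73 (two-sided exact permutation p = 0.333). Part of it lay in the let-7-5p sum, with 100039 and 94554 CPM in young brain and 81289 and 82062 CPM in old brain. Against the miR-30-5p family the values were 0.08 and 0.23 in young brain and 0.16 and 0.60 in old brain, and against the miR-26-5p family -0.36 and -0.03 against -0.48 and 0.44. The ages overlapped in both, so a rise of miR-29 relative to these 2 families was not seen in both old libraries. The sums of these 2 families were themselves higher in both old libraries, with mean levels of 43259 against 51745 CPM for miR-30-5p and 55306 against 68470 CPM for miR-26-5p.

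The miRNAs whose levels over the 4 libraries lay nearest to the summed miR-29 3p members, by the Euclidean distance of centered log2(CPM + 1) values among 453 names, were miR-455-5p (distance 0.08), let-7f-2-3p (0.14), the joint name let-7a-1-3p and let-7c-2-3p (0.16), miR-375-3p (0.21) and miR-30b-5p (0.22). With 4 libraries this is a description. miR-30b-5p, the most abundant of these, had 6145 and 5735 CPM in young brain and 7010 and 8994 CPM in old brain. miR-29a-5p ranked 8th in this order with a distance of 0.25, and miR-29c-5p ranked 109th with 0.71.

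Of the 11 other miRNAs listed as regulators of Bace1 or App, all were tested, 1 was called higher and none lower. Of all names tested, 4.17% were called higher. The median change of the 11 was 0.03 on the log2 scale, against -0.22 for all names. The call was mmu-miR-101a-3p, which is known to target App, with 7451 and 8754 CPM in young brain and 11449 and 13848 CPM in old brain (log2 change 0.64 ± 0.22 SE, limma adjusted p = 0.266). mmu-miR-101b-3p, with the same seed, had 2085 and 2583 CPM against 3099 and 3413 CPM and did not pass the test (0.49 ± 0.22 SE, limma adjusted p = 0.333). mmu-miR-107-3p, known to target Bace1, had 4230 and 1771 CPM against 2226 and 3505 CPM, and its replicates differed more than the ages. mmu-miR-9-5p had 42830 and 25548 CPM against 27655 and 43876 CPM, with the first young and the second old library high. Lower in both old libraries, though not called, were mmu-miR-124-3p (104115 and 107034 CPM against 98222 and 69405 CPM) and mmu-miR-153-3p (7217 and 6666 CPM against 5421 and 6070 CPM). mmu-miR-106b-5p and, by a narrow margin, mmu-miR-195a-5p were higher in both and not called. Of all 456 names, 12.1% were higher in both old libraries. The share that was lower in both was not counted, so these patterns are not read as results about the listed miRNAs.

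The marker lists of other cells were set beside these values. The neuronal list overlapped between the ages, and none of its 5 members was called. The oligodendrocyte list summed to 7961 and 11603 CPM in young brain and 6183 and 9981 CPM in old brain, also with overlap. The endothelial pair, miR-126a-3p and miR-126a-5p, summed to 12243 and 11472 CPM in young brain and to 5422 and 8990 CPM in old brain. Of the pair, miR-126a-3p was called lower (log2 change -1.15 ± 0.43 SE, limma adjusted p = 0.266), as were 55 of all 456 names. The ages overlapped for miR-126a-5p, with 3000 and 2618 CPM against 2865 and 2501 CPM (log2 change -0.07 ± 0.21 SE, limma adjusted p = 0.901). The lower sum thus lay in miR-126a-3p. The immune list (3322 and 3790 CPM against 3051 and 3112 CPM) and the smooth muscle pair (6415 and 6559 CPM against 5033 and 4915 CPM) were lower in both old libraries, with none of their members called. The median log2 change was -0.22 for the immune list, the same as for all names, and -0.39 for the smooth muscle pair. How many of all names were lower in both old libraries was not counted, so these lower sums are a description only. Red blood cell markers (1798 and 3374 CPM against 1698 and 2818 CPM, with miR-486a-5p under a joint name and not counted) and choroid plexus markers (2192 and 2701 CPM against 2289 and 2927 CPM) overlapped. The part of these cell types in the miR-29 values was not tested.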

How the data were processed

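Ago-bound small RNAs were pulled down with a GW182 peptide from cortex and hippocampus, size-selected on a gel, ligated to adapters and sequenced on an Illumina instrument, in 2 libraries per age. The authors trimmed the reads (Trim Galore is named in the submitters' processing notes), merged them into 1 table, removed rare reads, matched sequences to lists of mouse small RNAs and deposited the CPM (reads scaled to a fixed library total) of each sequence and library. The authors also deposited a viability score for each 6mer seed. The build mm9 stands in some of the deposited RNA names, and tool versions are not given in the sources used here. The smallest read total of a sequence over the 4 libraries was 4, and adapter ligation can favor some ends over others.

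Ages and replicate numbers were read from the labels. CPM were summed by miRNA name. limma 3.58.1 with an intensity trend (R 4.3.3) was fitted to log2(CPM + 1), two-sided and with age alone, for names that averaged 10 CPM or more and sequences that averaged 1 CPM or more. Adjusted p-values are Benjamini-Hochberg over all features tested. The pseudocount shrinks the changes of rare sequences. Shares and ratios were compared by exact permutation tests. Whole reads were recovered from the CPM steps (100% of nonzero values whole within 0.0006 CPM plus 1e-07 of the value) for edgeR 4.0.16 and DESeq2 1.42.0, which called 62 and 69 names. Isoforms were placed on the RefSeq hairpins, and up to 3 bases that leave the hairpin at the 3′ end counted as added. The limma fits were tested on simulated counts with 4-fold changes and a dispersion of 0.05. They called 100% of the changed and 2.73% of the unchanged names. For sequences these were 98.5% and 4.44%. Changes as small as those of the members, or a single library that stands apart, were not simulated, so the test does not bear on such calls.

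Named were the 5 members, the 5p strands of miR-29b, the 3 leading sequences of each 3p member, the leading one of each 5p member and the leading shifted one, the 5 nearest patterns, a list for Bace1 and App and 3 comparison families. The 23 nt and 24 nt forms, the later starts of miR-29c-5p and the marker miRNAs with values were added after their values were seen. The members and lists were chosen with earlier results of these data known. Alternatives were the replicate block, pseudocounts of 0.1 and 5, other filters, the median of ratios, no trend, edgeR, DESeq2, other denominators and leaving out each library.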

Additional observations from a re-analysis of the deposited data

How the results depend on the processing

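Numbers of calls moved most with the filter: with none, limma called 125 names and 3327 sequences in place of 74 and 1443, and with stricter filters (100 CPM for names, 10 CPM for sequences) 43 names and 424 sequences. Leaving out 1 library gave 55 to 74 names and 1065 to 1411 sequences. Of the 5 members, 1 was called as reported, 4 after median-of-ratios scaling, 4 by edgeR, 5 by DESeq2, 5 by edgeR with the replicate number as a block (an alternative added after the data were seen), against 8.55%, 8.55%, 9.43% and 11.0% of all names called higher, and 0 to 4 when 1 library was left out (0 without the second young or the second old library, 4 without the first old library). Member sequences called higher numbered 29 with the stricter filter (252 of all 3141 sequences tested), 117 after median-of-ratios scaling (1376 of all 14287) and 49 to 82 with 1 library left out, in place of 76. Median-of-ratios scaling moved the share of calls that were higher from 25.7% to 60.9% for names and from 58.1% to 81.7% for sequences.

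The replicate numbers are shared by libraries from different animals, and same-numbered deviations correlated with r = 0.180 over 456 names. With the replicate number as a block, limma called 79 names, 1530 sequences, 79 member sequences and 1 member, which was then miR-29b-3p (adjusted p = 0.280) and not miR-29c-5p (adjusted p = 0.280).

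Some small changes turned sign. mmu-miR-29b-1-5p changed by 0.013 after median-of-ratios scaling, 0.025 by edgeR with and without the block and 0.014 by DESeq2, and the 24 nt form of miR-29b-3p ending in U changed by 0.16 after median-of-ratios scaling. The share of miR-29c-3p with a seed other than that of its leading sequence differed by -0.060 points when only sequences that averaged 1 CPM or more were used. With 1 library left out, log2 changes spanned 0 as follows: -0.034 to 0.93 for miR-29c-3p, -0.36 to 0.38 for miR-29b-2-5p, -0.29 to 0.75 for the 23 nt and -0.17 to 0.65 for the shifted form of miR-29b-3p, -1.32 to 1.21 and -0.16 to 1.57 for its 24 nt forms ending in U and in an added A, -0.0092 to 0.76, -0.30 to 1.22, -0.32 to 0.60 and -0.54 to 0.93 for the 21 nt, 22 nt, 20 nt and shifted forms of miR-29c-3p, and -0.023 to 0.20 for the latest start of miR-29c-5p. The ratio of 5p to 3p ranged from -0.034 to 0.21 for miR-29a and from -0.20 to 0.76 for miR-29c. In points, the leading share ranged from -4.31 to 2.19 for miR-29a-3p and -5.999 to 1.09 for miR-29c-3p, and the share with another seed from -2.43 to 0.153 for miR-29a-3p, -2.05 to 0.324 for miR-29b-3p and -0.671 to 0.774 for miR-29c-3p. The share of 18 nt or less ranged from -0.0307 to 0.0266 for miR-29b-3p and -0.0138 to 0.0181 for miR-29c-3p. The causes were not tested. Leaving out reads of 15 to 17 nt gave no value, since no member had any. With 2 libraries per age, no permutation test could pass 0.05, and depth did not limit the 3p members, each with at least 59246 reads in every library.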
